A study of Mus musculus with 16 samples.

Results

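The 7 genes described here encode glycoproteins of the liver's extracellular matrix and were chosen by name from a panel of 760 genes: fibronectin (Fn1), thrombospondins 1 and 2 (Thbs1, Thbs2), osteopontin (Spp1), nidogen 1 (Nid1), perlecan (Hspg2) and the laminin gamma-1 chain (Lamc1). All 7 were present in the table, and earlier results of these data were known when they were chosen. They were measured in liver RNA of 16 male C57BL/6J mice. All 16 were housed at 29 °C, which the labels call thermoneutral, and ate a diet in which fat, largely from palm oil, gave 40 kcal% and fructose 20 kcal%, with cholesterol at 0.02%. The labels name the result a MASH model, after metabolic dysfunction-associated steatohepatitis, in which a fatty liver becomes inflamed and scarred. The control group of 8 mice received vehicle, 1.5% CMC (carboxymethyl cellulose) with 0.2% Tween-20, and the treated group of 8 received EVT0185 at 100 mg/kg by gavage. According to the series title EVT0185 inhibits acetyl-CoA metabolic enzymes, and the question here is how transcripts of matrix glycoproteins differ between dosed and undosed diseased livers. No group on a control diet was analysed here, so no value below is set against a healthy liver, and the age of the mice and the length of dosing were not stated.

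Matrix glycoproteins join collagen fibres, basement membranes and cells. Fibronectin and osteopontin bind integrins through an Arg-Gly-Asp sequence, and fibronectin is both a plasma protein secreted by hepatocytes and a fibrillar protein laid down by mesenchymal cells, on which collagen fibres assemble. Laminin, nidogen, perlecan and type IV collagen form basement membranes, the sheets under epithelia and around vessels. Nidogen 1 bridges the laminin network, which it binds through the gamma-1 chain, and the type IV collagen network. Scarring of the liver adds interstitial matrix and lays a basement membrane in the space between sinusoids and hepatocytes.

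Values are nCounter counts, that is RNA molecules counted through a fluorescent barcode without amplification, which the authors multiplied by 1 factor per sample and deposited as log2. They are called normalized counts below when taken out of the log. Whole counts recovered from them summed to between 1462994 and 1850800 per liver. Of the 760 genes, 612 had a mean of at least 20 normalized counts and were tested, the 7 among them. The tissue label was checked on hepatocyte genes. Apoa1, an apolipoprotein secreted by hepatocytes, had a mean of 125765 normalized counts in vehicle livers. Each gene has its own probe, so levels were compared between livers and never between genes.

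The 4 genes outside the basement membrane set (Fn1, Thbs1, Thbs2 and Spp1) were lower in EVT0185 livers, Spp1 least firmly. The 3 basement membrane genes did not move as 1 group. Of the 7 genes, Fn1, Thbs1, Thbs2, Spp1 and Nid1 were lower, 0 were higher, and Hspg2 and Lamc1 were not past the threshold, an adjusted p of 0.05 in limma, a linear model with a variance shared across genes. Of all 612 tested genes 21.6% were lower and 11.1% higher by the same rule. On the deposited values none of the 7 was higher at an unadjusted p under 0.05 either. By the exact permutation test, which compares group means over all splits of the animals, 4 of the 7 genes (Fn1, Thbs1, Thbs2 and Nid1) were lower and 0 higher, where 21.4% of the 612 were lower and 11.6% higher. The median log2 difference, EVT0185 minus vehicle, was -0.62 over the 7 genes and -0.10 over the 612. It was -0.02 over the 3 basement membrane genes and -0.65 over the other 4. The vehicle and EVT0185 livers overlapped in at least 1 animal for all 7 genes, while 6.86% of the 612 genes did not overlap between groups and 2.29% were lower without overlap. The calls were not all equally firm. Those of Fn1, Thbs1 and Thbs2 held under all 4 scalings of the samples, that of Spp1 under the deposited scaling alone, and that of Nid1 under all but 1. Lamc1, not called as deposited, was called higher under the other 3 scalings. After subtracting sample geometric means, 3 of the 7 were lower and 1 higher, beside 12.4% lower and 17.3% higher of the 612.

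**Figure D1:**
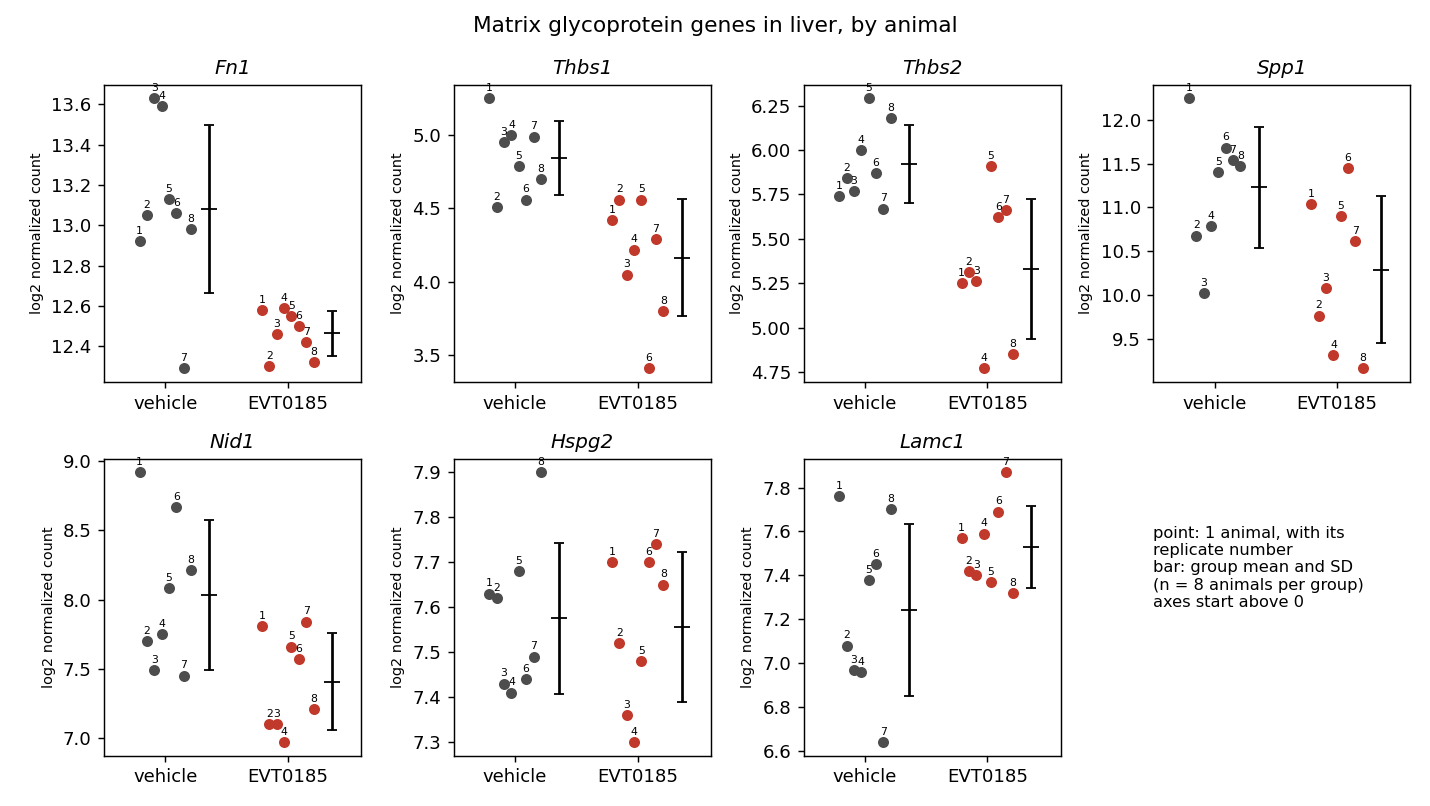
Log2 normalized count of each gene (vertical axes, which start above 0) in the 8 vehicle and 8 EVT0185 livers, with each animal's replicate number and the group mean and SD beside the points. Fn1 of vehicle 7 lies just below the lowest EVT0185 liver while the other 7 vehicle livers lie above all of them, and the Hspg2 ranges of the groups overlap widely.

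Promoter sequence was available for 4 of the genes in the RefSeq table of build GRCm38.p6, and it is shown because 3 of these genes fell and Hspg2 did not. Each line gives the 250 bases before the start of the gene, read 5′ to 3′ on the gene's strand. Capitals mark matches on either strand to 4 motifs, none of which overlapped another here. The TATA box was searched by the letters TATAAA and the motif known as CCAAT box by its name. The motif bound by Sp1, known as GC box, was searched by GGGCGG and that of the factor AP-1 by TGANTCA. The windows are chr17:14694263-14694512 on the minus strand for Thbs2, and on the plus strand chr5:104434861-104435110 for Spp1, the first of its 2 listed starts, chr13:13437352-13437601 for Nid1 and chr4:137468553-137468802 for Hspg2.
Thbs2: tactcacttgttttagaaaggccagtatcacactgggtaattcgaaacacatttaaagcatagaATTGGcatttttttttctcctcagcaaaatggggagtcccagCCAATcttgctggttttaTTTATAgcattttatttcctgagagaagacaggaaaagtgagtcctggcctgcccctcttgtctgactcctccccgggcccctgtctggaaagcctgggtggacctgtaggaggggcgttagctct
Spp1: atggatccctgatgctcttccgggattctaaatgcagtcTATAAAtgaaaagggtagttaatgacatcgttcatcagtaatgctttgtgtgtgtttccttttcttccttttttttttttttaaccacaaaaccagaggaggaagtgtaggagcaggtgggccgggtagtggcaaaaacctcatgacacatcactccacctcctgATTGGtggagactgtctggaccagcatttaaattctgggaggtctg
Nid1: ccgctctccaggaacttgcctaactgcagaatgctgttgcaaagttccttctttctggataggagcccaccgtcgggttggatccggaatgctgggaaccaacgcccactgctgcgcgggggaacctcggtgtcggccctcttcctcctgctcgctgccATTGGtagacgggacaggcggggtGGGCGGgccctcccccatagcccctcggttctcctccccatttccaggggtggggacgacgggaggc
Hspg2: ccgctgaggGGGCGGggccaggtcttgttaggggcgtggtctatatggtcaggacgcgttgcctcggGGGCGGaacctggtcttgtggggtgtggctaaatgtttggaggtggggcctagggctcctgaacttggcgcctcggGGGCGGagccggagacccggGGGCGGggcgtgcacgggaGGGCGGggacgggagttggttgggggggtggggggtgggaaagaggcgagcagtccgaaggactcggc

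The promoters of the 3 lower genes each held a CCAAT box, with 2 matches in Thbs2 and 1 each in Spp1 and Nid1, and the Hspg2 window held none. Hspg2 held 5 GC boxes and Nid1 held 1, while Thbs2 and Spp1 held none of these and each had 1 TATAAA match. None of the 4 windows contained TGANTCA. Of all 32817 promoters of that length, 33.8% held CCAAT, 32.7% GGGCGG, 12.4% TATAAA and 6.75% TGANTCA. Bases G and C made up 46.8% of the window of Thbs2, 43.6% of Spp1, 64.4% of Nid1 and 70% of Hspg2, against a median of 52.4%. These matches describe the letters of the windows and are no measure of binding. With 4 windows, a relation of any motif to the differences in expression was not tested.

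Fibronectin, the most deeply counted of the 7 genes, was lower and also more uniform in EVT0185 livers. Fn1 ranged from 5024 to 12664 normalized counts with a median of 8526 in vehicle livers, and from 5047 to 6160 with a median of 5705 in EVT0185 livers. The highest vehicle values were 12664 in vehicle 3 and 12332 in vehicle 4. The groups overlapped only through vehicle 7, which at 5024 was the lowest liver of all, and the other 7 vehicle livers had at least 7745. The mean was 8979 ± 2485 (SD, n = 8) against 5665 ± 434 (SD, n = 8), a fall of 1.53-fold between the means of the log2 values, as all folds here are taken (log2 -0.62, SE 0.142, 95% interval -0.92 to -0.32, limma adjusted p = 0.00306). Without vehicle 7 the log2 difference was -0.73. The exact permutation test over the 12870 ways to split the animals gave an adjusted p of 0.00911. The coefficient of variation was 27.7% in vehicle and 7.65% in EVT0185 livers, a difference in spread that was not tested. Nor was it particular to Fn1: the SD went from 21646 to 4393 for Fga, 14180 to 4970 for Fgb and 9041 to 2278 for Fgg. Vehicle 3, 4 and 7, at the ends of the Fn1 range, had limma sample weights of 0.414, 0.525 and 0.184. Such weights are low for livers that deviate across the tested genes. Counting error contributed little to the spread of Fn1, with an SD of 0.0157 against 0.42 between vehicle livers on the log2 scale.

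In bulk liver, fewer cells of a type and less RNA per cell cannot be told apart. Hepatocyte marker genes moved in the same comparison. Of the 12 listed, 7 were on the panel, and 5 were lower and 0 higher both in limma and in the exact permutation test. Over all tested genes 21.6% and 21.4% were lower by these rules. At an unadjusted p under 0.05 in limma, 6 of the 7 were lower and 0 higher, beside 174 lower of all 612 tested genes. The summed normalized count of the 7 markers was 230512 to 374131 in vehicle and 158510 to 207104 in EVT0185 livers, without overlap. Of single tested genes, 2.29% were lower without overlap too. Apoa1 carried most of that gap, falling to a mean of 61623. Without it, a sum chosen after the values were seen, the other 6 gave 120533 to 249840 in vehicle and 104904 to 131015 in EVT0185 livers, which overlap. Either sum was highest in vehicle 3, which also had the highest Fn1. Among vehicle livers either sum was lowest in vehicle 8, where Fn1 was 8060, while the lowest Fn1 was 5024 in vehicle 7. The part of the hepatocyte marker shift in the Fn1 result was not tested.

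Both thrombospondins were lower, from low counts. Thrombospondin 1 is a secreted trimer that binds CD47 and CD36 and can release TGF-beta from its latent complex, and thrombospondin 2 is its closest relative. Thbs1 had 22.9 to 38.2 normalized counts (median 29.3) in vehicle and 10.6 to 23.6 (median 19.1) in EVT0185 livers. All 8 EVT0185 livers lay below the vehicle median and 6 of them below every vehicle liver. The mean was 29.1 ± 5.1 (SD, n = 8) against 18.5 ± 4.6 (SD, n = 8), a fall of 1.6-fold (log2 -0.68, SE 0.167, 95% interval -1.03 to -0.33, limma adjusted p = 0.00477). These values rest on 23 to 43 recovered counts per vehicle liver and 11 to 25 per EVT0185 liver. The SD between vehicle livers, 0.25 on the log2 scale, was no larger than the 0.269 that counting alone gives, so differences between single vehicle livers in Thbs1 were not detectable at this depth. Of the 760 genes only 22.5% had a lower mean, no background was subtracted, and any background count in both groups makes the fold smaller than that of the transcript.

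Thbs2 had 50.9 to 78.1 normalized counts (median 57.8) in vehicle and 27.3 to 60.3 (median 39) in EVT0185 livers. Here 7 of 8 EVT0185 livers lay below every vehicle liver, and the exception was EVT0185 5 at 60.3. The mean was 61.2 ± 9.72 (SD, n = 8) against 41.6 ± 11.2 (SD, n = 8), a fall of 1.5-fold (log2 -0.59, SE 0.156, 95% interval -0.92 to -0.26, limma adjusted p = 0.00762). The exact permutation test gave adjusted p = 0.00602 for Thbs1 and 0.013 for Thbs2. The pair fell by similar amounts, and the log2 ratio of Thbs1 to Thbs2 within a liver had a median of -1.15 in vehicle and -1.13 in EVT0185. EVT0185 8 was second lowest of its group in both genes, at 13.9 for Thbs1 and 28.9 for Thbs2. The lowest values were 10.6 in EVT0185 6 for Thbs1 and 27.3 in EVT0185 4 for Thbs2, and at these counts the order of single livers is not resolved.

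Osteopontin had the largest difference of the 7 genes and the widest spread between animals. This phosphoprotein binds integrins and CD44, and in injured liver it is known from cholangiocytes and from macrophages that take up lipid. Spp1 ranged from 1043 to 4853 normalized counts (median 2774) in vehicle and from 577 to 2792 (median 1329) in EVT0185 livers. The ranges overlapped widely: 3 EVT0185 livers lay below every vehicle liver, vehicle 3 had 1043 and EVT0185 6 had 2792. The mean was 2642 ± 1182 (SD, n = 8) against 1444 ± 787 (SD, n = 8), a fall of 1.92-fold (log2 -0.94, SE 0.342, 95% interval -1.66 to -0.22, limma adjusted p = 0.0427). The exact permutation test did not pass (adjusted p = 0.0837), nor did limma after subtracting sample medians (log2 -0.84, adjusted p = 0.0696). The call also ended when any of 9 single livers was left out, which were vehicle 1, 5, 6, 7 and 8 and EVT0185 2, 3, 4 and 8, with a highest adjusted p of 0.0896 in limma.

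Markers of the cells that can make osteopontin were few on this panel. Of the cholangiocyte markers other than Spp1, Cftr, a chloride channel, was measured, at a summed 5 to 12 normalized counts in vehicle and 5 to 11 in EVT0185 livers, under the floor for testing. Of 13 macrophage and Kupffer cell markers 5 were on the panel and tested, and Cd68, a lysosomal protein of macrophages, was lower (log2 -0.50, SE 0.171, limma adjusted p = 0.0317). That 1 of 5 is a share near the 21.6% lower over all tested genes. The other 4 were not called, with log2 differences of 0.51 for Marco, 0.29 for Cd163 and -0.14 each for Csf1r and Cd14. The sum of the 5 was 745 to 2733 (median 1095) in vehicle, highest in vehicle 3, and 937 to 1272 (median 1148) in EVT0185 livers. Vehicle 3 also had the lowest Spp1 of its group, and 1 liver does not show how the sum and Spp1 vary together. The part of these markers in the Spp1 result was not tested.

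The 3 basement membrane genes went separate ways. Nid1 was lower, the Hspg2 ranges of the groups overlapped widely, and Lamc1 had the higher mean in EVT0185 livers. Nid1 had 175 to 485 normalized counts (median 243) in vehicle and 126 to 229 (median 169) in EVT0185 livers. All 8 EVT0185 livers lay below the vehicle median and 4 below every vehicle liver, and the highest values were 485 in vehicle 1 and 406 in vehicle 6. The mean was 279 ± 113 (SD, n = 8) against 174 ± 41.9 (SD, n = 8), a fall of 1.54-fold (log2 -0.62, SE 0.208, 95% interval -1.06 to -0.19, limma adjusted p = 0.0281). The exact permutation test gave an adjusted p of 0.0442. The call ended when vehicle 6 or any of EVT0185 2, 3, 4 and 8 was left out, with a highest adjusted p of 0.0596 in limma, and after subtracting sample geometric means (log2 -0.50, adjusted p = 0.0553).

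Perlecan, the heparan sulfate proteoglycan of basement membranes, had the smallest difference of the 7 genes. Hspg2 had 170 to 239 normalized counts (median 189) in vehicle and 157 to 214 (median 192) in EVT0185 livers, with 4 of 8 EVT0185 livers above and 4 below the vehicle median. The log2 difference was -0.02 (SE 0.0909, limma adjusted p = 0.883), and its 95% interval of -0.21 to 0.17 leaves out changes as large as the estimates of the 5 lower genes. Its sign turned after subtracting sample medians (0.08), sample geometric means (0.10) and with quantile normalization (0.07).

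Lamc1, the chain shared by most laminins, had 99.7 to 217 normalized counts (median 151) in vehicle and 159 to 233 (median 180) in EVT0185 livers. All 8 EVT0185 livers lay above the vehicle median, and vehicle 2, 3, 4 and 7 lay below every EVT0185 liver. The mean was 156 ± 41.9 (SD, n = 8) against 186 ± 25 (SD, n = 8), and on the deposited scale the difference did not pass (log2 0.29, SE 0.146, 95% interval -0.02 to 0.59, limma adjusted p = 0.145). The exact permutation test gave an adjusted p of 0.178. With the other 3 scalings Lamc1 was called higher: log2 0.38 after subtracting sample medians (adjusted p = 0.0262), 0.41 after subtracting sample geometric means (adjusted p = 0.0239) and 0.36 with quantile normalization (adjusted p = 0.0277). On these scalings 15.7%, 17.3% and 17.6% of the 612 genes were higher and 13.7%, 12.4% and 14.5% lower. The series' design text names global geometric mean normalization. The mean log2 value over the 760 genes nevertheless ran from 7.13 to 7.48 between samples as deposited. The authors' factor thus did not equalize it, and which genes set that factor was not stated. The other scalings moved the median gene from -0.10 to -0.01, 0.02 and 0.02, so whether Lamc1 rose depends on the scaling.

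**Figure D2:**
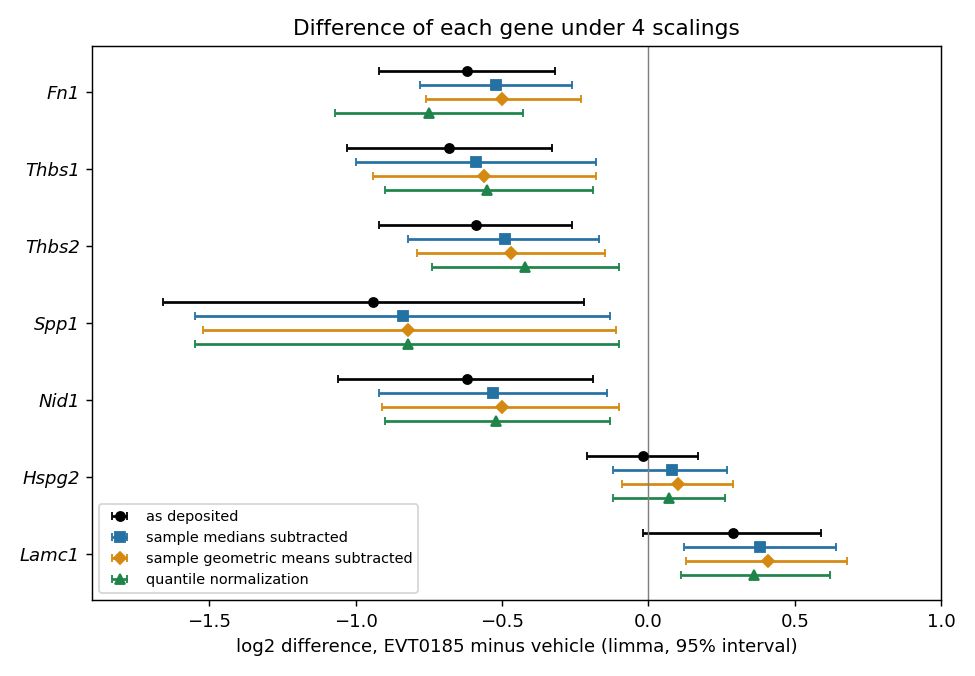
Log2 difference, EVT0185 minus vehicle, of each gene (horizontal axis) with its 95% interval from limma, for the deposited values and 3 other scalings of the samples. Fn1, Thbs1, Thbs2, Spp1 and Nid1 lie left of 0 under all 4 scalings, Hspg2 spans 0, and the Lamc1 interval reaches -0.02 only for the deposited values.

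A ratio of 2 genes within 1 liver does not depend on the scaling factor, since both counts carry the same one. The log2 ratio of Nid1 to Lamc1 was 0.52 to 1.22 (median 0.74) in vehicle livers and -0.61 to 0.29 (median -0.11) in EVT0185 livers. All 8 EVT0185 livers lay below all 8 vehicle livers, and the mean ratio dropped by 0.91 on the log2 scale. This ratio was chosen after the values of both genes were seen and is given without a test. Of the 611 other tested genes, 3.93% had a ratio to Lamc1 that was likewise lower in every EVT0185 liver than in any vehicle liver. The ratio of Nid1 to Hspg2 overlapped between groups, at -0.04 to 1.29 in vehicle and -0.44 to 0.19 in EVT0185. So did that of Lamc1 to Hspg2, at -0.85 to 0.13 and -0.34 to 0.29.

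**Figure D3:**
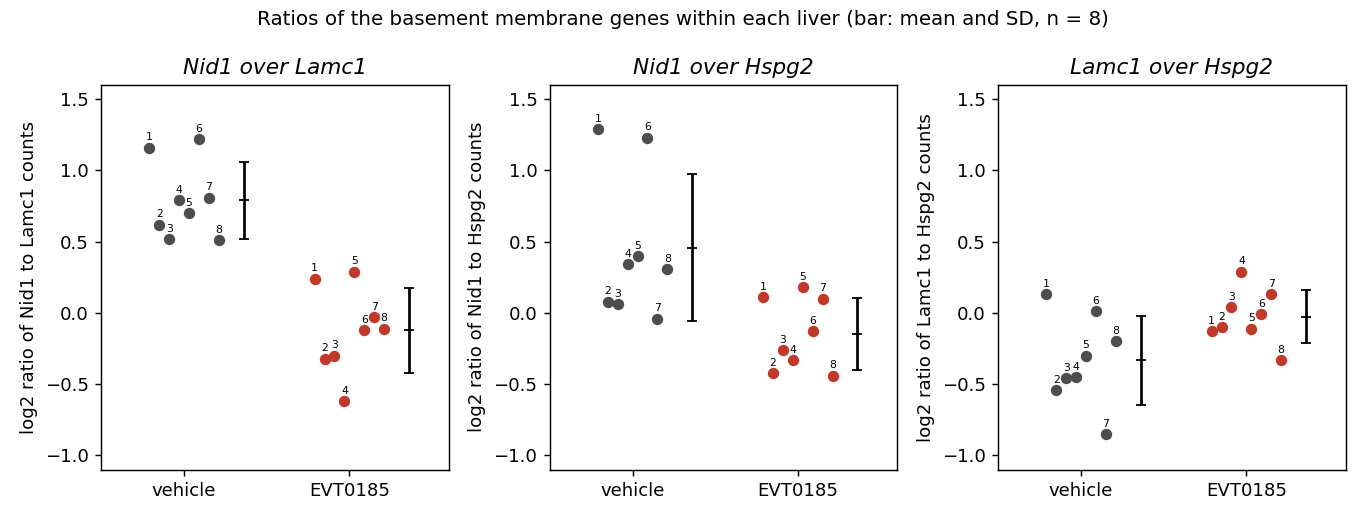
Log2 ratio of the normalized counts of 2 basement membrane genes within each liver, with replicate numbers and the group mean and SD (n = 8). The Nid1 to Lamc1 ratio is at least 0.52 in vehicle and at most 0.29 in EVT0185 livers, and the other 2 ratios overlap.

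Endothelial cells and stellate cells, the liver's collagen-producing pericytes, both contribute to basement membranes. Of 11 endothelial markers 6 were tested and 0 were past the threshold in either direction in limma, 0 at an unadjusted p under 0.05 and 0 in the exact permutation test, with a median log2 difference of -0.05 and sums of 762 to 1216 in vehicle and 848 to 1136 in EVT0185 livers. Of 12 stellate cell and myofibroblast markers 7 were tested, and 2 were lower: Mylk, a kinase of contractile cells (log2 -0.42, limma adjusted p = 0.0405), and Col1a1. By the exact permutation test 1 was lower, Col1a1, and 2 of 7 is near the 21.6% lower over all tested genes. At an unadjusted p under 0.05 in limma, 4 of the 7 were lower and 0 higher, beside 174 lower of all 612 tested genes. The median log2 difference of these markers was -0.29, against -0.10 over all tested genes. Their sums were 1259 to 2382 in vehicle and 1015 to 1679 in EVT0185 livers. Of the T and NK cell and the neutrophil markers, 1 each was tested: Nkg7 was not called, and Csf3r, a neutrophil receptor, was lower (log2 -0.54, limma adjusted p = 0.0371). The part of the stellate cell markers in the Nid1 and thrombospondin results was not tested.

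From liver to liver, some of the 7 genes varied together and others did not. Likeness was measured as Pearson's r between deviations from the group mean, after subtracting sample medians, and is a description without a p, over livers that share 1 panel and 1 normalization. Spp1 and Nid1 were the most alike of the 21 pairs, with r = 0.769 over 16 livers, 0.805 within vehicle and 0.79 within EVT0185. Vehicle 1 had the highest value of both genes, and EVT0185 2, 3, 4 and 8 had the 4 lowest values of both in their group. Nid1 and Lamc1 followed at 0.726, with 0.864 within vehicle and 0.344 within EVT0185. Spp1 had r = 0.54 with Thbs2 and 0.504 with Lamc1. Fn1 ran against Spp1, with r = -0.741 within vehicle livers and 0.158 within EVT0185 livers. Thbs1 and Thbs2 had r = 0.221, at counts where counting error is a large part of the spread.

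**Figure D4:**
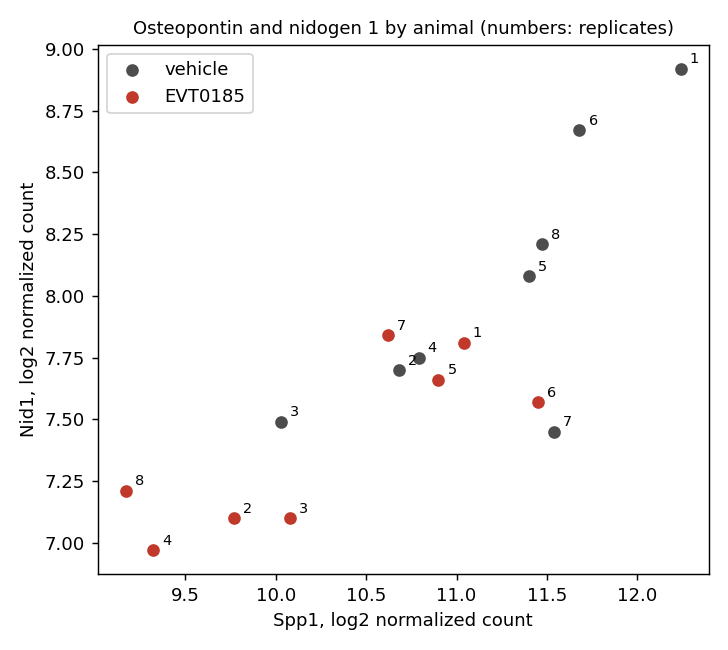
Log2 normalized counts of Spp1 (horizontal) and Nid1 (vertical) in each liver, with replicate numbers. Vehicle 1 is highest in both genes, EVT0185 2, 3, 4 and 8 are lowest in Nid1 at 126 to 148 normalized counts, and vehicle 7 has low Nid1 for its Spp1.

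The genes most alike to each in this sense were of several kinds. Spp1 was closest to Acaca, an acetyl-CoA carboxylase of fatty acid synthesis (r = 0.909), Apoa4 (0.873) and the fatty acid elongase Elovl6 (0.869), although Apoa4 was far lower in EVT0185 livers (log2 -4.32) and Elovl6 was higher (log2 0.74). Nid1 was closest to Flt4, a vascular endothelial growth factor receptor (0.86), the desaturase Scd2 (0.83) and Acacb, the other acetyl-CoA carboxylase (0.825). Thbs2 was closest to Fasn (0.773), Elovl6 (0.74) and the class II gene H2-Eb1 (0.734). Fn1 was closest to the transcription factor Stat3 (0.889), Ptpn1 (0.878) and Rapgef2 (0.86), and within EVT0185 livers these values were 0.32, 0.421 and 0.486. Hspg2 was closest to Nos3, the nitric oxide synthase of endothelium (0.796), Vim (0.729) and Serpinh1 (0.728). Lamc1 was closest to App (0.823), Maml2 (0.737) and Nid1 (0.726), and Thbs1 to Adpgk (0.698), Atf4 (0.686) and Cpn1 (0.676).

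Other glycoprotein and basement membrane genes of the panel did not pass the threshold. Of 54 listed, 10 were on the panel and 6 were tested, and 0 were called in either direction in limma or in the exact permutation test. At an unadjusted p under 0.05 in limma, 2 were lower (Reln and Ccn2) and 1 higher (Nid2). By that rule 174 of all 612 tested genes were lower and 86 higher. The nidogen 1 relative Nid2 differed by log2 0.30 (SE 0.142, 95% interval 0.00 to 0.60, limma adjusted p = 0.114), from 54.3 ± 11.9 to 66.8 ± 12.4 normalized counts (SD, n = 8 each). The type IV collagen chains that nidogen ties to laminin differed by log2 -0.18 for Col4a1 (limma adjusted p = 0.251) and -0.10 for Col4a2 (limma adjusted p = 0.633). Connective tissue growth factor (Ccn2) differed by -0.48 (limma adjusted p = 0.0612) and reelin (Reln) by -0.41 (limma adjusted p = 0.0641).

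Interstitial collagens, whose fibres assemble on fibronectin, fell in 5 of 6 tested members, and in 4 by the exact permutation test, beside 21.6% and 21.4% of all tested genes. Col6a3 of type VI collagen had a log2 difference of -0.92 (limma adjusted p = 0.00138) and Col1a2 of type I one of -0.85 (limma adjusted p = 0.00295). Col1a1, Col3a1 and Col5a1 were the other called members, and Col14a1 differed by -0.27 (limma adjusted p = 0.132). The list's median log2 difference was -0.79, against -0.10 over all tested genes.

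Of 8 tested receptors of these glycoproteins, Cd36 was higher and Itga1 lower in limma, shares near or under the 11.1% higher and 21.6% lower over all tested genes. The exact permutation test also called Itgb1 higher (adjusted p = 0.048). Cd36, which binds thrombospondins and also takes up fatty acids, rose from 3428 ± 816 to 8541 ± 1026 normalized counts (SD, n = 8 each), by log2 1.34 (SE 0.125, limma adjusted p = 3.9e-07). Itga1, the alpha chain of a collagen and laminin receptor, was lower (log2 -0.38, SE 0.0756, limma adjusted p = 0.000995). The fibronectin receptor chains Itga5 and Itgb1 differed by -0.16 (limma adjusted p = 0.412) and 0.11 (limma adjusted p = 0.181), and Itga4 by -0.40 (limma adjusted p = 0.0629). Of 6 focal adhesion genes, which act inside the cell behind integrins, the kinase Src was lower (log2 -0.55, limma adjusted p = 0.0483) and 5 were not called. That 1 of 6 is under the 21.6% lower over all tested genes. The exact permutation test did not call Src and called Ilk lower (log2 -0.14, adjusted p = 0.019).

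Proteases and their inhibitors that act on these matrix proteins were lower in 6 of 7 tested members, beside 21.6% of all tested genes. Mmp12, the macrophage elastase, had a log2 difference of -1.35 (limma adjusted p = 0.000967). That of the gelatinase Mmp2 was -1.23 (limma adjusted p = 0.00287) and that of the collagenase Mmp13 -0.99 (limma adjusted p = 0.00713). Mmp14, Timp2 and the plasmin precursor Plg were the other 3. Of 9 TGF-beta ligands, receptors and Smads, 1 was lower, the type I receptor Tgfbr1, with a log2 difference of -0.42 (limma adjusted p = 0.00138). That 1 of 9 is under the 21.6% lower over all tested genes. The ligand Tgfb1 differed by -0.08 (limma adjusted p = 0.529).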

How the data were processed

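Liver RNA of 16 mice was measured with the nCounter Fibrosis Panel. The authors used nSolver 4.0 with global geometric mean normalization, per the series' design text, and the deposited values are log2; their geometric mean still differs between samples. Taken out of the log and divided by 1 factor per sample, 100% of the values came within 0.1 of a whole count in every sample. These recovered counts describe depth and counting error (the SD of a Poisson count on the log2 scale). The table names no genome build.

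Genes with a mean of at least 20 normalized counts were tested with limma 3.58.1 in R 4.3.3 (lmFit, eBayes with a variance trend, no covariate) on the deposited values, two-sided, with Benjamini-Hochberg adjustment over the 612 genes and a threshold of 0.05. Exact permutation tests of single genes used all 12870 splits, were two-sided and adjusted over the same genes. The test was checked on simulated counts. Genes named are the 7, called members of written lists or their 2 smallest p, and the 3 genes most alike to each. Nid2, Col4a1, Col4a2, Itga4, Itga5, Itgb1, Tgfb1, Col14a1 and uncalled cell markers were named after their values were seen. Members and lists were chosen with earlier results of these data known. Samples of a group differed by more than counting error (chi-square per degree of freedom 13 or more over 56 pairs). Alternatives were other scalings, floors, a pseudocount, sample weights, the replicate number as a block, no variance trend and each liver left out. Groups come from the sample titles. Some of the genes so named are not reported here.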

Additional observations from a re-analysis of the deposited data

How the results depend on the processing

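Fn1, Thbs1 and Thbs2 kept their direction and call under every alternative that tested them. A floor of 100 normalized counts left both thrombospondins untested, so 3 of the 7 genes were lower there. After subtracting sample medians, Spp1 was not called (-0.84), Lamc1 was called higher (0.38), Hspg2 turned sign (0.08), 1 of the 7 genes was higher, and 84 of all tested genes were lower in place of 132. After subtracting sample geometric means, Spp1 (-0.82) and Nid1 (-0.50) were not called, Lamc1 was (0.41) and Hspg2 was 0.10, so 3 of the 7 genes were lower and 1 higher, with 76 lower and 106 higher genes in all. With quantile normalization, Spp1 was not called (-0.82), Lamc1 was (0.36), Hspg2 was 0.07, 1 of the 7 genes was higher, and 108 genes in all were higher in place of 68. In the exact permutation test Spp1 (-0.94) was not called (adjusted p = 0.0837).

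With single livers left out, the number of lower genes among the 7 was 3 to 5, and 3 without vehicle 6 or EVT0185 2, 3, 4 or 8. Spp1 was -1.11 to -0.78 and stayed called in 7 of 16 such fits. Nid1 was -0.71 to -0.50 and stayed called in 11. Hspg2 was -0.05 to 0.03, above 0 without vehicle 8 or EVT0185 3 or 4, and Lamc1 was 0.20 to 0.36 and never called. The replicate numbers of the labels gave no clear sign of pairing or of its absence. Same-numbered livers had correlations of deviations from -0.144 to 0.458, over 0.1 in 5 of 8 pairs. Of the 8 vehicle livers, 2 correlated best with the EVT0185 liver of their own number. With the number as a replicate block, the same 5 of the 7 genes were lower, and Spp1 had an adjusted p of 0.0048. Adding a pseudocount of 20 shrank Thbs1 to -0.35 and Thbs2 to -0.41, both still called. Depth limits Thbs1 most, at 11 to 43 counts per liver.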
